A study of Mus musculus with 12 samples.

Results

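The miR-99/miR-100 and miR-125 families comprise 5 mature microRNAs (miRNAs) of the mouse that share a genomic neighbourhood with let-7. They are mmu-miR-99a-5p, mmu-miR-99b-5p, mmu-miR-100-5p, mmu-miR-125a-5p and mmu-miR-125b-5p, and they were selected by name among the 1900 mature miRNAs of the deposited table. All 5 were above 0 in all 12 libraries. The libraries were made from small-RNA-enriched RNA of the gastrocnemius, the large calf muscle, of male C57BL/6 mice. The young group was 6 mice of 6 months and the aged group 6 mice of 24 months, with no treatment or genetic change in either, and each library came from 1 mouse. The question was whether these miRNAs differed between the ages and whether miRNAs of 1 genomic cluster kept a fixed ratio to each other.

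A miRNA is cut from a hairpin precursor and then guides the silencing complex to messenger RNAs, mainly through its seed, bases 2 to 8 counted from its 5′ end. The hairpin yields a 5p strand and a 3p strand, and for these hairpins the 5p strand is the usual guide and the 3p strand the usual passenger. In mice as in flies, miR-99/miR-100, let-7 and miR-125 lie in order along the same stretch of DNA. In flies the 3 are cut from a shared primary transcript. Members of the miR-99/miR-100 family are known to repress Mtor, the growth-controlling kinase. The miR-125 family is related to lin-4, a timing miRNA of nematode development, and miR-125b is known in muscle as a repressor of Igf2 during regeneration. Let-7 is best known for holding back proliferation in differentiated cells.

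The mature sequences set out how close the members are, and so which of them the mapping of short reads could mix up. They are shown 5′ to 3′ from the RefSeq annotation of GRCm38.p6, with the seed in capitals.
miR-99a-5p: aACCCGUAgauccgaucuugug
miR-100-5p: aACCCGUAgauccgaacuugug
miR-99b-5p: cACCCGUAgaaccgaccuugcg
miR-125a-5p: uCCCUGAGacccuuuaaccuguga
miR-125b-5p: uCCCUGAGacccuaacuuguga
let-7a-5p: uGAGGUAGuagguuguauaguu
let-7c-5p: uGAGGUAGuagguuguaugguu
let-7e-5p: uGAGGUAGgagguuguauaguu

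The seed ACCCGUA was found in miR-99a-5p, miR-99b-5p and miR-100-5p and in no other miRNA with a RefSeq sequence, which covered 1603 of the 1900 names. Counted from the 5′ end, miR-99a-5p and miR-100-5p differed by U16A alone. From miR-99a-5p to miR-99b-5p there were 4 substitutions, A1C, U11A, U16C and U21C, all outside the seed. The seed CCCUGAG of the miR-125 family was also that of miR-351-5p, miR-6367 and miR-6394, and the last 2 had no read in any library. MiR-125a-5p and miR-125b-5p shared their first 13 bases. The partners let-7a-5p and let-7c-5p differed by A19G, and let-7a-5p and let-7e-5p by U9G. Levels of pairs that differ by 1 base are less certain than the others, since a read with an error at that base can be placed on the wrong miRNA.

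The nearest relatives of the miR-99/miR-100 family by sequence were the miR-10 miRNAs, which sit in the Hox gene clusters and are shown for the stretch they share with it.
miR-10a-5p: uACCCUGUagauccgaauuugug
miR-10b-5p: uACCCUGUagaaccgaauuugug
MiR-100-5p and miR-10a-5p had a run of 11 bases in common, starting at base 6 of miR-100-5p and base 7 of miR-10a-5p. The seed of miR-10 was ACCCUGU, so the miR-10 miRNAs are relatives and not seed partners.

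The members came from 3 clusters, all on the plus strand of mm10, with positions and hosts taken from GENCODE M21. On chromosome 16, Mir99a (chr16:77598936-77599000), Mirlet7c-1 (chr16:77599657-77599750) and Mir125b-2 (chr16:77646273-77646343) lay in introns of the non-coding host Mir99ahg and spanned 47408 bases. On chromosome 9, Mir100 (chr9:41531425-41531504), Mirlet7a-2 (chr9:41536716-41536811) and Mir125b-1 (chr9:41581926-41582002) lay in introns of the non-coding host 3110039I08Rik, which RefSeq also lists as Mir100hg, and spanned 50578 bases. The cluster on chromosome 17 was compact, at 692 bases. There Mir99b (chr17:17830188-17830257) and Mirlet7e (chr17:17830352-17830444) lay in introns of the protein-coding gene Spaca6, and Mir125a (chr17:17830812-17830879) overlapped an exon of it. The mature miR-125b-5p, let-7a-5p and let-7c-5p each come from 2 hairpins, so their levels are sums over loci.

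The estimated depth of the young libraries was between 198733 and 6239342 miRNA reads, and that of the aged libraries between 123042 and 7515016. The member with the fewest reads in any library was miR-99a-5p, with 102 reads in aged replicate 5, the shallowest library. Depth therefore did not limit the detection of the 5 guide strands, though low counts still add counting noise to their levels. Depth did limit several 3p strands and the partner let-7e-5p, which had 8 reads in its lowest library. Cell type lists of miRNAs were read beside the members because a muscle holds several cell types. All 6 myofibre miRNAs (such as miR-1a-3p and miR-133a-3p) were detected, and together they made up 9.89 to 17.7% of the summed FPKM in young libraries (median 12.98%) and at least 10.4% in aged libraries (median 11.1%). Of the 23 listed miRNAs of 6 cell types, only miR-206-3p, a myofibre miRNA, passed the test for age, and none was at 0 throughout. In whole muscle, fewer cells of a type and less of a miRNA per cell cannot be told apart.

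All 5 members were abundant, miR-100-5p and miR-99b-5p most of all. By mean FPKM (fragments per unit of miRNA length and of library depth), miR-100-5p ranked 24 of 1900 in young and 27 in aged muscle. MiR-99b-5p ranked 25 and 34, miR-125a-5p 36 and 37, miR-125b-5p 41 and 38, and miR-99a-5p 45 at both ages. Together they took 0.921 ± 0.332% (SD, n = 6) of the summed FPKM in young and 0.733 ± 0.117% (SD, n = 6) in aged libraries. For comparison, miR-10b-5p alone was the most abundant miRNA at both ages.

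Within the miR-99/miR-100 family, miR-100-5p was the largest part at both ages. It made up 44.9 ± 3.28% of the family FPKM in young and 46.2 ± 1.66% in aged muscle (SD, n = 6 each). MiR-99b-5p made up 38.7 ± 5.46% and 35.3 ± 2.49%, and miR-99a-5p 16.4 ± 2.75% and 18.5 ± 1.16%. The miR-125 family was split nearly evenly, with miR-125a-5p at 54.1 ± 5.80% in young and 51.0 ± 3.59% in aged muscle.

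The order of the 5 by mean log2 FPKM was the same at both ages, miR-100-5p, miR-99b-5p, miR-125a-5p, miR-125b-5p and miR-99a-5p. In young muscle each miRNA stood above the next in 5 of 6 libraries, and the mean differences of 0.22 to 0.74 log2 units had SDs of 0.31 to 0.71. In aged muscle miR-100-5p stood above miR-99b-5p in 6 of 6 libraries, by 0.39 ± 0.15 log2 units (SD), and miR-125b-5p above miR-99a-5p in 6 of 6, by 0.53 ± 0.32. The middle of the order was looser. Aged miR-125a-5p and miR-125b-5p differed by 0.06 ± 0.21 log2 units, less than their spread, with miR-125a-5p higher in 4 of 6 libraries.

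**Figure D1:**
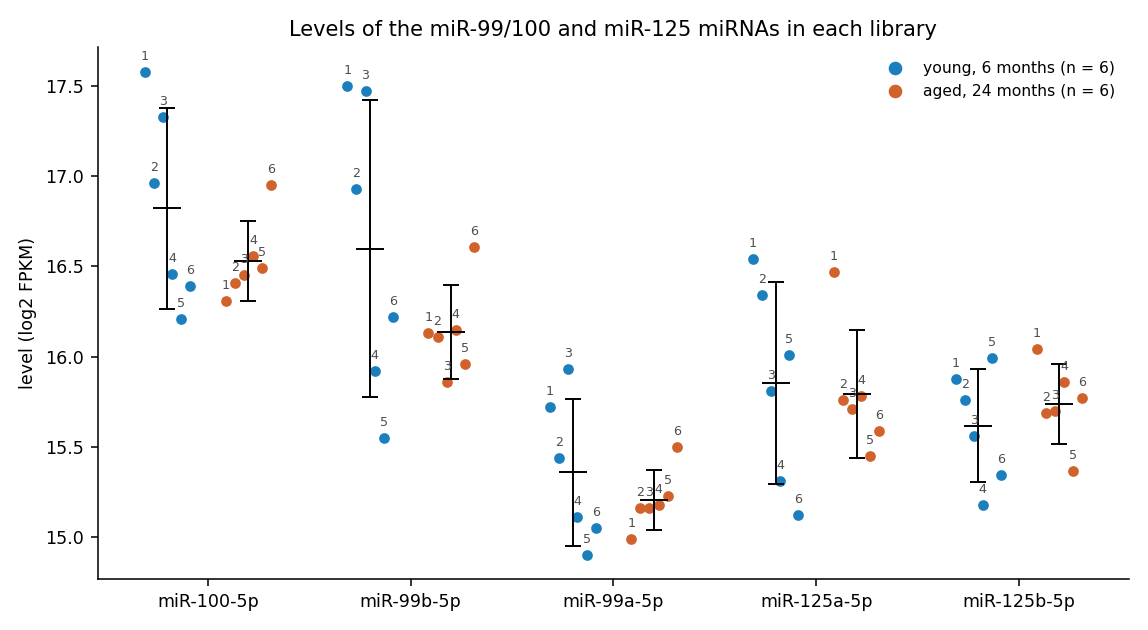
The level of each member in log2 FPKM (vertical axis) is plotted for each library, with the replicate number above the point, the young libraries in blue and the aged in orange, and bars for the mean ± SD of 6. MiR-99b-5p spans 15.55 to 17.50 in young and 15.86 to 16.61 in aged libraries, and the 2 ages overlap for all 5 members.

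MiR-99b-5p showed the widest spread of the 5 in young muscle, and miR-125a-5p in aged muscle. Its lowest, median and highest level in young libraries was 15.55, 16.58 and 17.50 log2 FPKM, and in aged libraries 15.86, 16.12 and 16.61. Young replicates 1, 2 and 3, at 17.50, 16.93 and 17.47, were above all 9 other libraries, while young replicates 4 and 6 lay inside the aged range and replicate 5 below it. Its mean FPKM was 113014 ± 60415 in young and 73067 ± 14183 in aged muscle (SD, n = 6 each). On log2(FPKM + 48.2), the limma estimate of the change from young to aged was -0.46 (SE 0.24, 95% interval -0.97 to 0.04), with an adjusted p of 0.423. Leaving out young replicate 1 reduced that estimate to -0.28 and leaving out young replicate 3 to -0.29.

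MiR-100-5p followed the same libraries. Its lowest, median and highest level was 16.21, 16.71 and 17.58 log2 FPKM in young and 16.31, 16.47 and 16.95 in aged libraries. Young replicates 1, 2 and 3 were again the 3 highest of 12, at 17.58, 16.96 and 17.33, although aged replicate 6, at 16.95, was only just under them. The limma change was -0.29 (SE 0.18, 95% interval -0.67 to 0.08, adjusted p = 0.494). It was -0.14 without young replicate 1 and -0.19 without young replicate 3.

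MiR-99a-5p, the least abundant member, had a narrower range. Young libraries ran from 14.90 through a median of 15.28 to 15.93 log2 FPKM, and aged libraries from 14.99 through 15.17 to 15.50. Its highest values were those of young replicates 3 and 1, and aged replicate 6 came next. The limma change was -0.15 (SE 0.15, 95% interval -0.46 to 0.15, adjusted p = 0.711), and it was -0.08 without young replicate 1 and -0.04 without young replicate 3. With the reads of miR-99a-5p and miR-100-5p summed, which removes any exchange of reads between these near-identical miRNAs, the change was -0.26.

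MiR-125a-5p did not share that arrangement. Its lowest, median and highest level was 15.12, 15.91 and 16.54 log2 FPKM in young and 15.45, 15.74 and 16.47 in aged libraries. The top library of each age was replicate 1, and the lowest of all was young replicate 6. The limma change of -0.06 (SE 0.20, 95% interval -0.47 to 0.35, adjusted p = 0.944) was near 0, and leaving out young replicate 1, young replicate 2 or aged replicate 5 turned its sign.

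MiR-125b-5p was the only member with a higher estimate in aged muscle, and the ages again overlapped. It ran from 15.18 through 15.66 to 15.99 log2 FPKM in young and from 15.37 through 15.74 to 16.04 in aged libraries. The limma change was 0.12 (SE 0.14, 95% interval -0.17 to 0.40, adjusted p = 0.760). The estimate stayed positive whichever library was left out, from 0.03 to 0.19.

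None of the 5 members passed the test between ages, against 2.9% of all tested miRNAs (14 of 482) at an adjusted p under 0.05 by limma. None had an unadjusted p under 0.05 in the same limma fit, where 12.9% of all tested miRNAs did. That count depended on single libraries. MiR-99b-5p had an unadjusted limma p of 0.0229, 0.00553 and 0.0462 without young replicate 4, 5 or 6 and of 0.0413 without aged replicate 6, and miR-100-5p one of 0.0254 without young replicate 5, with none of these past the adjusted threshold. None had libraries that did not overlap between the ages, which held for 2.7% of all tested. Counts of 0 among 5 members do not stand apart from those shares. Estimates were lower in aged muscle for 4 members and higher for 1. The median change of the 5 was -0.15 log2 units, against 0.07 over all 482 tested miRNAs, of which 267 were higher and 215 lower. The intervals bound what could have been missed only under the SEs of the main limma fit. They reached down to a fold of 0.512 for miR-99b-5p and 0.629 for miR-100-5p, and up to 1.32 for miR-125b-5p. For miR-99b-5p the SE was 0.24 in that fit, 0.30 without the filter and 0.34 by limma without trend. With a replicate block it was 0.21. A larger SE widens the interval, so the bounds depend on the fit.

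The let-7 partners of the clusters had estimates above 0, and none of the 3 passed the test either. Let-7a-5p ran from 16.12 through 16.36 to 16.76 log2 FPKM in young and from 16.45 through 16.69 to 17.14 in aged libraries, and 6 of 6 aged libraries were above the young median. Its limma change was 0.31 (SE 0.13, 95% interval 0.05 to 0.57), with an unadjusted p of 0.0223 and an adjusted p of 0.245. Let-7c-5p was 0.22 higher (SE 0.13, limma adjusted p = 0.478), and let-7e-5p, which was far rarer, 0.14 higher (SE 0.19, limma adjusted p = 0.826). MiR-351-5p, the detected seed partner of miR-125 outside these clusters, had an estimate of 0.08 (SE 0.17), and the miR-10 relatives had 0.11 (miR-10a-5p, SE 0.16) and 0.01 (miR-10b-5p, SE 0.19).

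**Figure D2:**
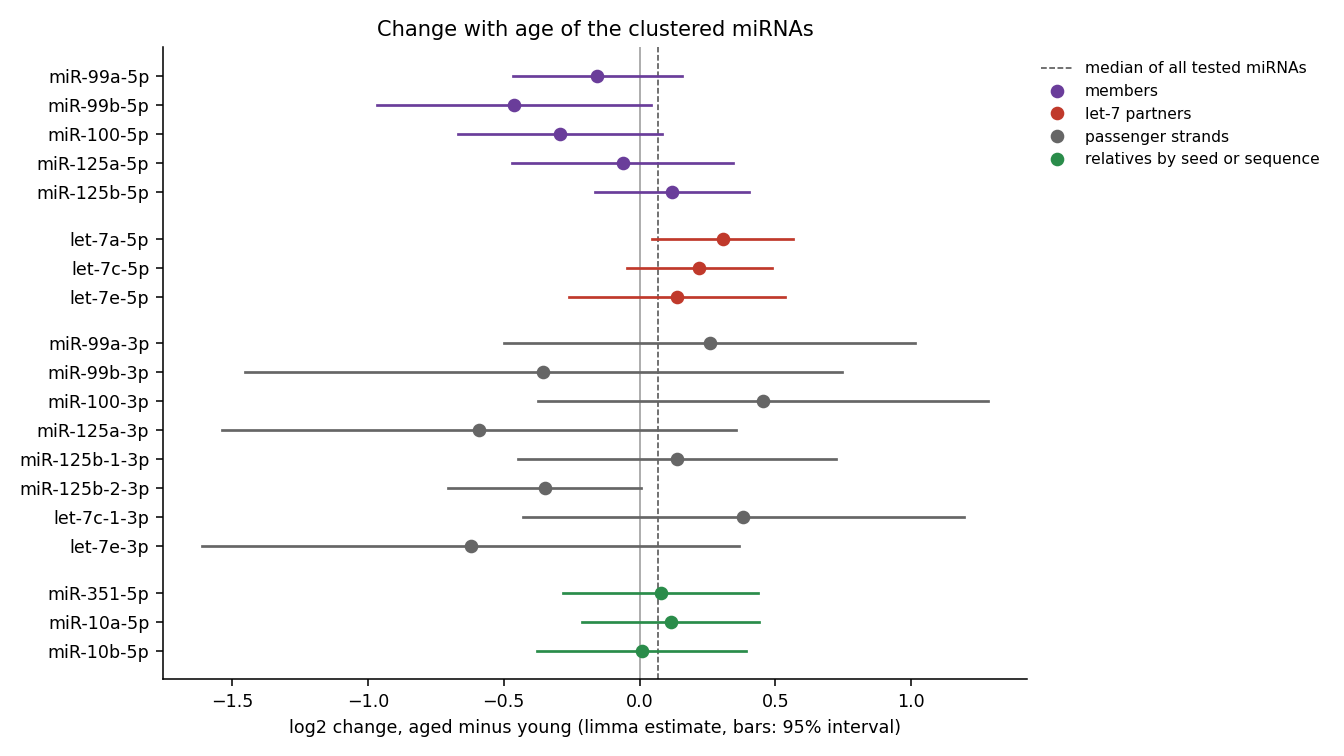
The limma change from young to aged muscle in log2 units (horizontal axis, points, with bars for the 95% interval) is shown for the members, the let-7 partners, the passenger strands and relatives, beside the median of all tested miRNAs at 0.07 (dashed line). The intervals of all 5 members span 0, and that of let-7a-5p, 0.05 to 0.57, does not.

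Ratios within a library were then compared, since they do not depend on how libraries were scaled to each other. Of 13 ratios within clusters or between members with the same seed, 0 passed a two-sided exact permutation test at an unadjusted p under 0.05, and the adjusted p ran from 0.335 to 0.587. Without young replicate 5, 5 of the 13 had an unadjusted exact permutation p under 0.05, the smallest 0.0173 for miR-100-5p to miR-125b-5p, and their adjusted p was 0.101. The smallest p this design allows is 0.002165. In all 3 clusters the ratio of the miR-99/miR-100 member to its let-7 neighbour was lower in aged muscle by estimate. The 3 clusters share the same animals, so these are not 3 independent results.

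The smallest p of the 13 belonged to the chromosome 9 cluster. The log2 ratio of miR-100-5p to let-7a-5p was 1.28, 0.55, 1.21, -0.04, -0.55 and 0.08 in young replicates 1 to 6 and -0.84, -0.30, -0.22, -0.16, -0.04 and 0.50 in aged replicates 1 to 6. Young replicates 1, 2 and 3 stood above all aged libraries, replicate 2 only just, and the other 3 young libraries lay inside the aged range. The mean was 0.42 ± 0.73 in young and -0.18 ± 0.43 in aged muscle (SD, n = 6 each), a difference of -0.60 (exact permutation p = 0.126, 0.335 after Benjamini-Hochberg adjustment over the 13).

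On chromosome 17 the members were most unequal. MiR-99b-5p exceeded let-7e-5p, its neighbour at 94 bases, by 4.90 ± 1.09 log2 units in young and 4.30 ± 0.49 in aged muscle (SD, n = 6 each), or 30.0-fold and 19.7-fold. MiR-125a-5p exceeded let-7e-5p as well, the log2 ratio of let-7e-5p to miR-125a-5p being -4.16 ± 0.67 and -3.96 ± 0.30. The mature miRNA from the middle hairpin of this short cluster was thus far rarer than those from the hairpins on either side. On chromosome 16 the neighbours were closer in level, with miR-99a-5p at a geometric mean of 0.648 times let-7c-5p in young and 0.4999 times in aged muscle (SD of the log2 ratio 0.64 and 0.36, n = 6 each). Let-7c-5p and let-7a-5p are sums over 2 loci, so these ratios mix loci outside the clusters, and the let-7e-5p ratios do not.

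Between libraries, the levels of the miR-99/miR-100 members followed each other more closely than they followed their cluster neighbours. The measure was the SD between libraries of the log2 ratio of a pair, which is small when the ratio is constant. Over the 12 libraries it was 0.17 for miR-99a-5p and miR-100-5p, 0.25 for miR-99b-5p and miR-100-5p, and 0.36 for miR-99a-5p and miR-99b-5p, although these 3 come from 3 chromosomes. It was 0.28 for miR-125a-5p and miR-125b-5p.

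Neighbours in a cluster had less constant ratios wherever a miR-99/miR-100 member was 1 of the pair. The SD was 0.41 for miR-99a-5p and miR-125b-5p, 0.49 for miR-100-5p and miR-125b-5p and 0.60 for miR-99b-5p and miR-125a-5p. With let-7 it was 0.53 for miR-99a-5p and let-7c-5p, 0.65 for miR-100-5p and let-7a-5p and 0.86 for miR-99b-5p and let-7e-5p. Pairs of let-7 with miR-125b-5p were as constant as family pairs, at 0.27 for let-7a-5p and 0.29 for let-7c-5p, and let-7e-5p with miR-125a-5p was at 0.51. The same separation of the miR-99/miR-100 pairs was seen within each age. The 3 family pairs had SDs of 0.21 to 0.44 in young and 0.08 to 0.19 in aged muscle, and the 6 cluster pairs of the same members 0.48 to 1.09 and 0.32 to 0.49. These are descriptions over libraries shared by all pairs, with no test. Let-7e-5p had only 8 reads in its lowest library, so the SDs of its pairs hold more counting noise. MiR-99a-5p and miR-100-5p differ by 1 base, and whether reads were placed on the wrong one of them was not tested.

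**Figure D3:**
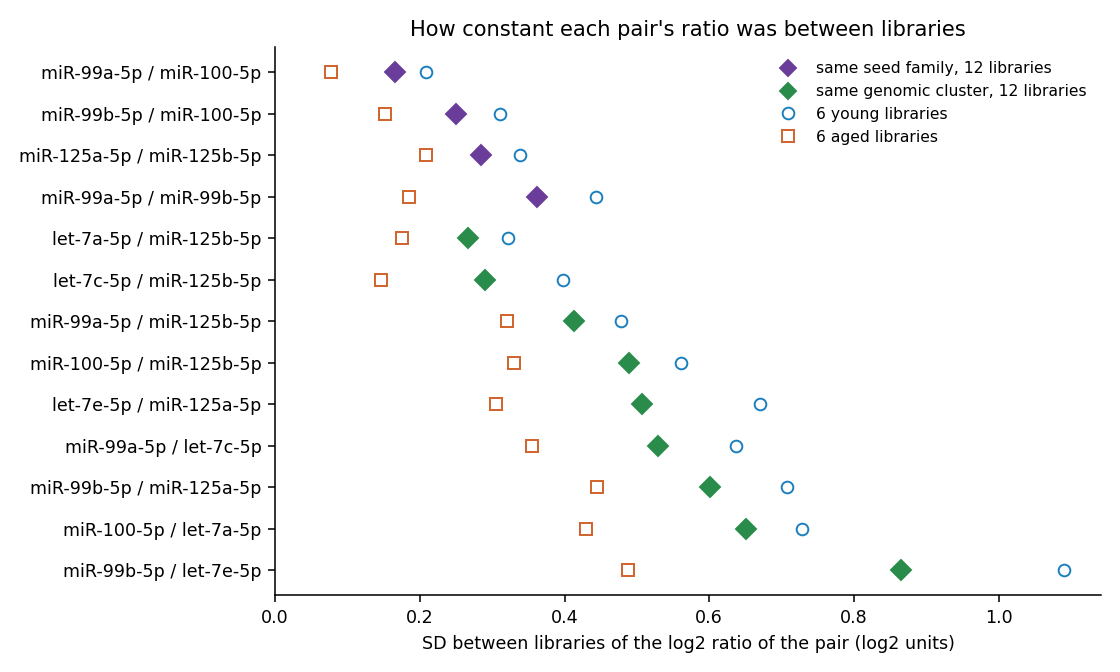
For each pair of miRNAs (vertical axis) the SD between libraries of its log2 ratio (horizontal axis, log2 units, 0 meaning a constant ratio) is plotted over all 12 libraries (diamonds, purple for the same seed family and green for the same cluster), over 6 young (circles) and over 6 aged libraries (squares). The family pairs lie at 0.17 to 0.36, and the cluster pairs that include a miR-99/miR-100 member at 0.41 to 0.86. Let-7a-5p, let-7c-5p and miR-125b-5p are sums over 2 loci, so pairs with them also hold reads from other loci.

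Ranked against all 215 other miRNAs that were above 0 in every library, the closest pattern to each miR-99/miR-100 member was another of the family. MiR-100-5p was the closest of 215 to miR-99a-5p and to miR-99b-5p, and miR-99a-5p the closest to miR-100-5p. The median SD over the 215 was 0.54 for miR-99a-5p, 0.81 for miR-99b-5p and 0.64 for miR-100-5p. The family was not set apart as a whole. For miR-99a-5p, miR-10b-5p (0.21) and miR-10a-5p (0.25) came next, at places 2 and 3, and its family member miR-99b-5p only at place 17. For miR-100-5p the first after the family was miR-10b-5p (0.34), and for miR-99b-5p it was miR-501-3p (0.40). Among cluster neighbours, let-7e-5p stood at place 137 for miR-99b-5p, let-7a-5p at place 117 for miR-100-5p and let-7c-5p at place 101 for miR-99a-5p, which is near the middle of the ranking. The place of let-7e-5p is less certain, as it had few reads in some libraries. Those of let-7a-5p, let-7c-5p and miR-125b-5p are places of sums over 2 loci. The miR-125 neighbours stood higher, miR-125b-5p at place 34 for miR-99a-5p and 29 for miR-100-5p, and miR-125a-5p at place 13 for miR-99b-5p. In the other direction, miR-99b-5p stood at place 119 for miR-125a-5p, whose median SD over the 215 was 0.58.

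MiR-125a-5p was closest to miR-125b-5p (0.28), then to miR-145a-3p (0.29) and miR-149-5p (0.31). MiR-125b-5p was closest to 2 let-7 family members outside the clusters, miR-98-5p (0.21) and let-7j (0.21), and to miR-378a-3p (0.22), and miR-125a-5p stood at place 27 for it. The median SD of the ratios to miR-125b-5p was 0.44 over the 215.

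**Figure D4:**
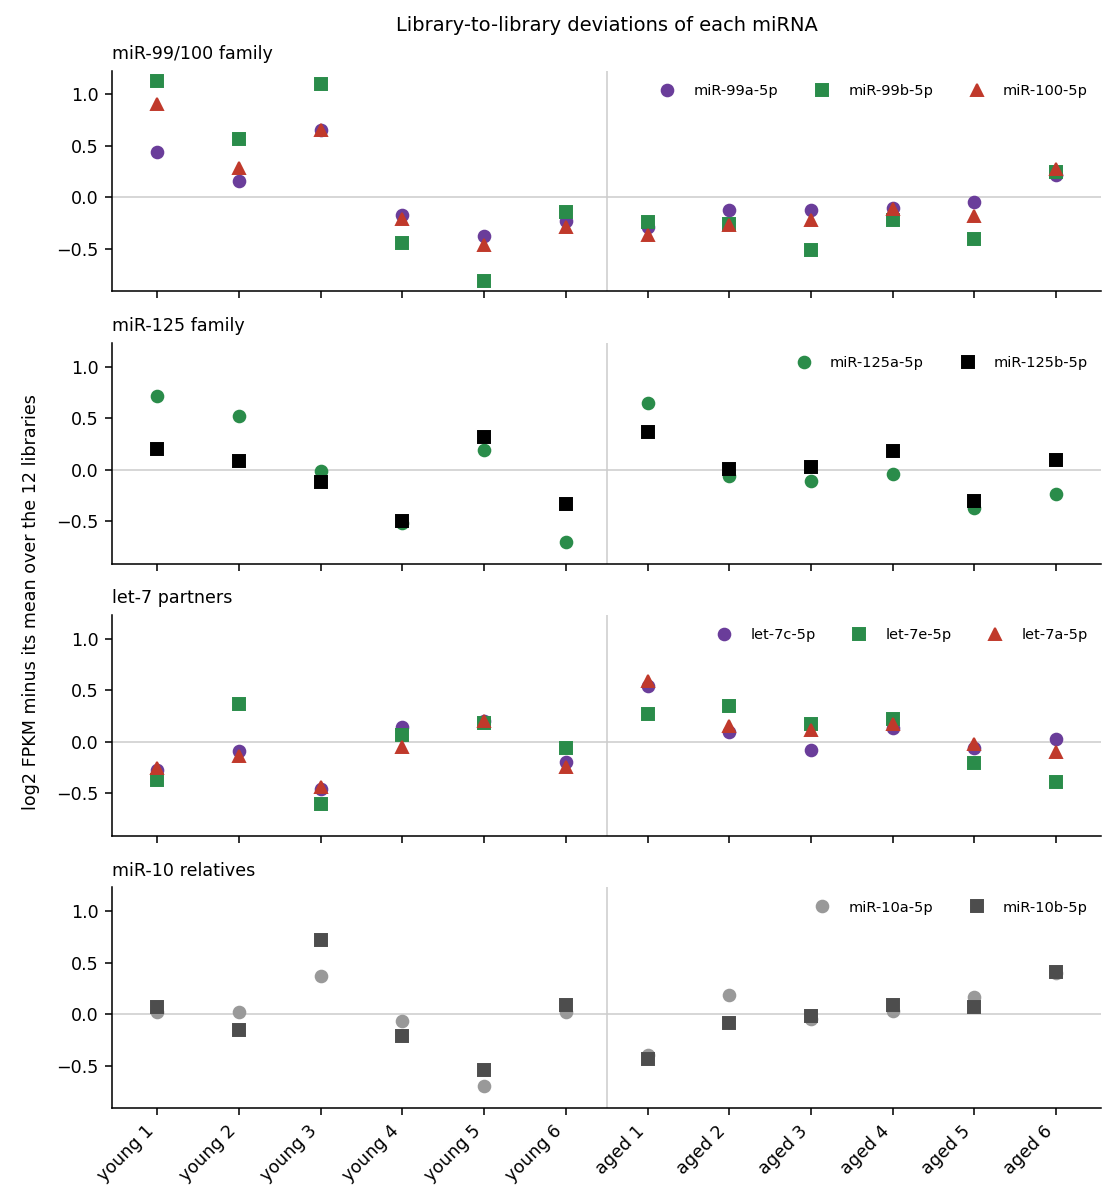
The log2 FPKM of each miRNA minus its mean over the 12 libraries (vertical axis) is plotted by library (horizontal axis), with 1 panel for each family and 1 colour for each cluster (purple chromosome 16, green chromosome 17, red chromosome 9, black for miR-125b-5p from both 16 and 9, grey for the miR-10 relatives). In young replicates 1 and 3 all 3 miR-99/miR-100 members lie above 0, miR-99b-5p by 1.13 and 1.10, while the let-7 partners lie below it.

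The summed share of the miR-99/miR-100 family showed the same libraries. In young replicates 1 to 6 it was 1.07, 0.696, 0.880, 0.444, 0.371 and 0.455% of the summed FPKM, and in aged replicates 1 to 6 it was 0.466, 0.427, 0.425, 0.444, 0.421 and 0.646%. Aged libraries apart from replicate 6 were thus close to each other and to young replicates 4 and 6. The share of the miR-125 family was 0.382, 0.324, 0.228, 0.184, 0.315 and 0.179% in young and 0.398, 0.238, 0.244, 0.249, 0.189 and 0.249% in aged libraries, with no such split.

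Other values moved across the same libraries. The myofibre list made up 11.7, 12.2 and 9.89% of the summed FPKM in young replicates 1 to 3 and 13.9, 17.7 and 13.8% in young replicates 4 to 6, and 93.7 to 96.9% of that list was miR-133a-3p in any library. The fibroblast list (miR-199 and miR-214) was at 0.122, 0.109 and 0.113% and then 0.147, 0.166 and 0.136%. The endothelial list (miR-126a) was at 0.789, 0.852 and 0.663% and then 1.08, 0.915 and 0.859%. In these 3 lists the shares of replicates 1 to 3 were all below those of replicates 4 to 6. The white blood cell list did the same by a narrow gap, at 0.0334, 0.0316 and 0.0188% and then 0.0486, 0.0390 and 0.0335%. The red blood cell list, at 0.0157, 0.0246 and 0.0198% and then 0.0151, 0.0140 and 0.0160%, and the smooth muscle list, at 14.5, 11.8 and 11.2% and then 12.9, 9.39 and 9.58%, overlapped. Aged replicate 6, the aged library with the largest miR-99/miR-100 share, had 10.6% for the myofibre list and the largest fibroblast share of all libraries, 0.188%. Aged replicates 1 to 5 had 12.99, 10.41, 12.10, 11.47 and 10.65% for the myofibre list. Their miR-99/miR-100 shares were 0.466, 0.427, 0.425, 0.444 and 0.421%. The large aged miR-99/miR-100 share was that of 1 library, and its relation to the myofibre share was not tested. The estimated reads of young replicates 1 to 3, 550277, 439715 and 308449, fell between those of other young libraries. The split into young replicates 1 to 3 and 4 to 6 was taken from the miR-99/miR-100 levels of these libraries. All the shares are parts of the same total, so they do not vary independently. Of that total, miR-10b-5p alone took 9.66% in young replicate 5 and 20.8% in young replicate 3. The part of cell makeup and of depth in the spread of the miR-99/miR-100 members was not tested.

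The members also differed in how widely they spread within each age. The SD of miR-99b-5p between young libraries, 0.82 log2 units, was the 18th largest of the 216 miRNAs above 0 in every library, whose median was 0.35. In aged libraries it was 0.26, against a median of 0.28. MiR-100-5p went from 0.56 to 0.22 and miR-99a-5p from 0.41 to 0.17. MiR-125a-5p had SDs of 0.56 and 0.35, and miR-125b-5p was at 0.31 and 0.22. The difference in spread between the ages was not tested.

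The passenger strands gave another readout of the same hairpins. Of the 9 listed, 8 passed the filter on low values. None of them passed the age test or had an unadjusted p under 0.05 by limma. The strand let-7a-2-3p, which failed the filter, had no read in young and 3 reads in aged libraries. MiR-125b-2-3p came nearest, at 12.39, 12.52, 12.81, 13.39, 13.12 and 13.15 log2 FPKM in young replicates 1 to 6 and 12.71, 12.48, 12.48, 12.72, 12.15 and 12.73 in aged replicates 1 to 6. The aged libraries were all below the young median of 12.97, within a range that overlapped the young one. Its limma change was -0.35 (SE 0.17, 95% interval -0.70 to 0.01, adjusted p = 0.398), while its 5p partner was at 0.12.

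The 3p strands also separated the 2 loci of miR-125b, which the guide strand cannot. The table lists miR-125b-5p once per locus, and these rows differed by -0.01 ± 0.10 log2 units (SD over 12 libraries) and at most by 0.21, so the 2 rows held almost equal values. The locus-specific strands are shown for how far they differ.
miR-125b-1-3p: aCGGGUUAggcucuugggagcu
miR-125b-2-3p: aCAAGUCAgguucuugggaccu
Between them only 8 bases in a row were the same, so that their reads can be told apart. MiR-125b-2-3p, from chromosome 16, exceeded miR-125b-1-3p, from chromosome 9, in 12 of 12 libraries. The log2 difference was 2.45 ± 0.61 in young (range 1.67 to 3.06) and 1.96 ± 0.33 in aged muscle (range 1.62 to 2.59; SD, n = 6 each), a fold of 5.46 and 3.88. The level of a 3p strand also depends on how long it survives after the hairpin is cut, so this is a difference between 3p strands and not a measure of each locus.

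The balance of the 5p and 3p strand varied widely among the members. On log2(FPKM + 48.2) in both strands, the 5p strand exceeded the 3p strand by 10.7 ± 1.00 log2 units for miR-100 in young muscle (SD, n = 6), by 9.68 ± 1.22 for miR-99b and by 9.10 ± 0.87 for miR-125a. The excess was smaller for miR-99a, at 6.21 ± 0.79, although its guide differs from that of miR-100 by 1 base. The 3p strands of miR-100, miR-99b and miR-125a rested on 11, 14 and 14 reads over all young libraries and 17, 30 and 13 over all aged ones, so those ratios lean on the pseudocount. MiR-99a-3p rested on 117 and 160 reads. For let-7e the excess was 4.70 ± 1.08, with 11 and 23 reads of its 3p strand.

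The ratio to the locus-specific strands of miR-125b was smaller still. It was 5.12 ± 0.44 log2 units against miR-125b-1-3p and 2.71 ± 0.63 against miR-125b-2-3p in young, and 5.10 ± 0.31 and 3.18 ± 0.10 in aged muscle, with the guide summed over both loci each time. The 5p strand was thus 6.56-fold above miR-125b-2-3p in young and 9.08-fold in aged muscle, against 73.8-fold and 55.4-fold for miR-99a. None of the 8 cluster hairpins tested passed the test for a change of its ratio with age, against 0.629% of all 159 hairpins (1 of 159, with 18 at an unadjusted p under 0.05 by limma), and their limma adjusted p ran from 0.516 to 0.977.

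**Figure D5:**
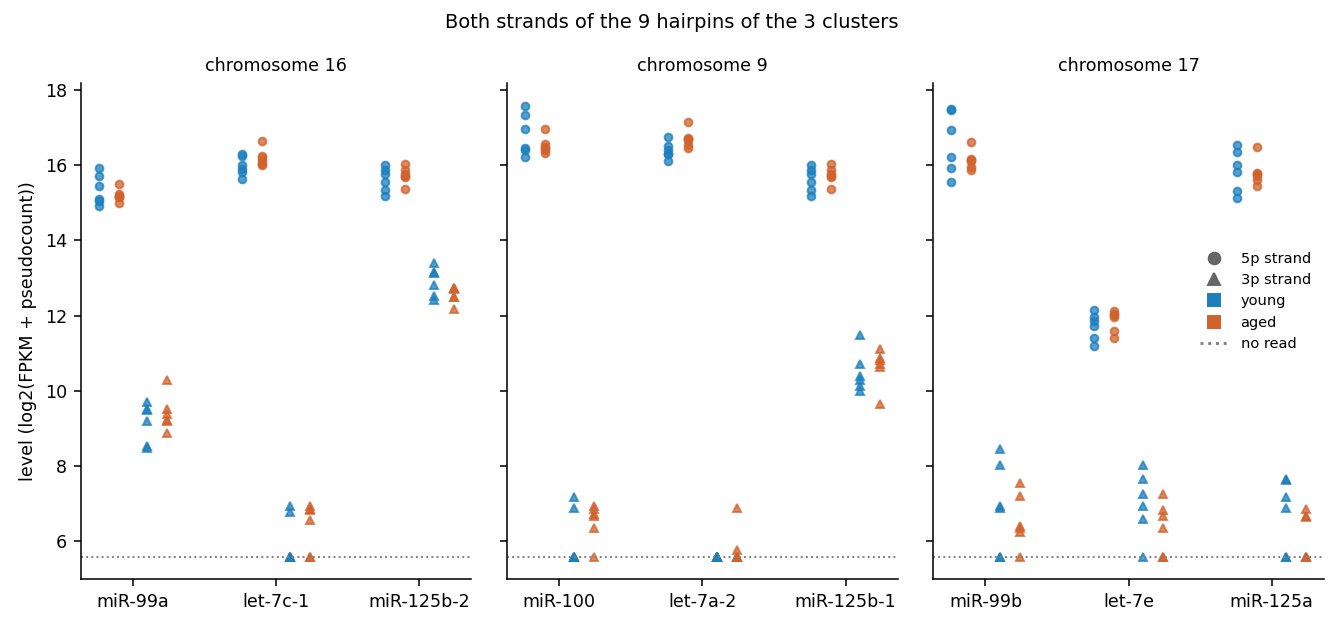
Levels of the 5p strand (circles) and 3p strand (triangles) on log2(FPKM + 48.2) (vertical axis) are plotted for the 9 hairpins of the 3 clusters (1 panel for each chromosome), with young libraries in blue, aged in orange and the dotted line at the value of no read. MiR-125b-2-3p lies closest to its guide and above miR-125b-1-3p in 12 of 12 libraries. Most 3p strands of chromosome 17 lie near the line of no read, as do those of miR-100, let-7a-2 and let-7c-1.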

How the data were processed

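Small RNA of 12 muscles was sequenced, 6 per age. Per the study's methods, the authors trimmed adaptors, aligned the reads with BWA (default settings, mm10) and obtained an FPKM per mature miRNA in miRBase version 20. The deposited values are log2 FPKM without a pseudocount, and 0 stands for no read. How reads that match several places were assigned, and whether counting used strand, is not given in the sources used here; antisense annotations overlap Mir99a, Mirlet7c-1 and Mirlet7e.

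The log was undone and genomic copies of a mature miRNA were summed (2035 rows, 1900 miRNAs). Groups and replicate numbers came from the sample labels. Depth was estimated from the lowest step of each library, taken as 1 read of 22 nucleotides. The 482 miRNAs above 0 in at least 5 libraries were fitted on log2(FPKM + 48.2), the pseudocount being the median of the 12 libraries' lowest values above 0, with limma 3.58.1 in R 4.3.3 (eBayes with trend, aged against young, two-sided) and Benjamini-Hochberg adjustment at 0.05. Log2 ratios of 13 pairs were compared by two-sided exact permutation tests, and strand ratios by limma over 159 hairpins. Likeness was the SD of log2 ratios over 12 libraries, among 216 miRNAs above 0 in all. The text names the members, the lists of partners, passenger strands, relatives and cell type miRNAs, seed partners, and the 3 miRNAs most like each member. The members and lists were chosen with earlier results of these data known. The limma script was tested on simulated data. Python 3.11.15, pandas 2.3.3, SciPy 1.17.1 and matplotlib 3.10.9 were used. Alternatives were other pseudocounts, filters and scalings, a replicate block, depth as a covariate, copies kept apart, and leaving out each library. The study's messenger RNA sequencing was not analysed here.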

Additional observations from a re-analysis of the deposited data

Results flagged for a closer look

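Among 52 groups of 6 values (members, ratios and strand ratios at each age), 4 held a library whose gap to the nearest other value was past Dixon's 95% critical value for 6 values, and chance alone gives about 2.6. The level of miR-125a-5p in aged replicate 1 was 16.47 log2 FPKM, with the other aged libraries at 15.45 to 15.78, and let-7a-5p and miR-125b-5p were also highest there among aged libraries. The log2 ratio of miR-99b-5p to let-7e-5p in aged replicate 6 was 5.24, with the others between 3.92 and 4.4. The 5p to 3p log2 ratio of miR-100 in aged replicate 5 was 10.9, with the others at 9.63 to 10.1, and it rested on 0 reads of the 3p strand in the shallowest library. In that library the 5p to 3p log2 ratio of miR-125b-1 was 5.72, with the others at 4.90 to 5.06, on 2 reads of the 3p strand.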

How the results depend on the processing

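None of the 5 members was called under any of the 22 alternatives run for all of them, which included the exact permutation test. Their smallest adjusted p was 0.107 by limma (miR-99b-5p without young replicate 5). Of 114 alternative values of the member changes, 111 kept their sign. The other filters, the replicate block, limma without trend and the exact permutation test leave the estimate itself unchanged, so those signs could not turn. The 3 that turned were those of miR-125a-5p without young replicate 1 (0.075), young replicate 2 (0.035) and aged replicate 5 (0.0069), and leaving out single libraries moved it from -0.21 to 0.075. With single libraries left out, miR-99b-5p ran from -0.67 to -0.28, miR-100-5p from -0.42 to -0.14, miR-99a-5p from -0.25 to -0.04 and miR-125b-5p from 0.03 to 0.19. Of the 182 alternative values of the 13 ratios, 6 had an unadjusted exact permutation p under 0.05. These were 5 without young replicate 5, and let-7a-5p to miR-125b-5p without young replicate 4 (exact permutation p = 0.0325). A replicate block was tested by sign flips over same-numbered libraries, which left the differences unchanged. The smallest possible sign-flip p of 0.03125 could pass adjustment only if most of the 13 ratios reached it. By adjusted p, all 182 kept sign and side of the threshold. Among strand ratios, 109 of 120 did: miR-99b turned when single libraries were left out (-0.47 to 0.22, turned values 0.068, 0.22, 0.027 and 0.15), as did miR-125b-1 (-0.14 to 0.11, turned values 0.11, 0.045, 0.019, 0.0077 and 0.022), and with a pseudocount 10 times larger miR-125b-1 gave 0.012 and let-7c-1 0.16. The size of several strand ratio changes was not stable. With other pseudocounts miR-100 ran from -3.02 to -0.35 and let-7c-1 from -1.74 to 0.16. MiR-125a ran from 0.06 to 1.54 and let-7e from 0.26 to 1.78, while miR-99a, miR-99b and both miR-125b ratios moved less. The count of all miRNAs called fell from 14 to 6 with a pseudocount of 1 FPKM and to 7 without a filter. It was 8 with a filter on the mean and 8 with depth as a covariate. Leaving out single libraries gave 6 to 15. The cause of these differences was not tested. The exact permutation test called 0, but it could not have called any. Its smallest possible p is 0.00216, reached only where the ages do not overlap. That held for 13 of the 482 tested miRNAs, too few for an adjusted p under 0.05. A replicate block gave a count of 14 as well and called no member (miR-99b-5p -0.46, unadjusted p = 0.0371 and adjusted p = 0.362 by limma). Deviations of same-numbered libraries correlated at -0.19 to 0.13, 1 of 6 above 0.1. Of the young libraries, 0 of 6 were closest to the aged library of their own number. With the block the SE fell from 0.197 to 0.143 for miR-125a-5p and from 0.245 to 0.208 for miR-99b-5p, and changed little for the other members. Whether same-numbered libraries shared a batch was not tested. Depth limited several 3p strands and let-7e-5p, which had 8 reads in its lowest library, but not the detection of the 5 members. With depth as a covariate the limma change of miR-99a-5p was -0.11, against -0.15 in the main fit.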
